A study of Rattus norvegicus with 8 samples.

Results

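The peroxisome proliferator-activated receptors (PPARs) and a set of lipid genes known to respond to them were followed in H9c2 cells, a myoblast line derived from rat heart. The 10 genes were chosen by symbol, with earlier results of these data known. All 10 were found once among the 40994 genes of the deposited count table, and none was chosen by a cut on its values. They are the receptors Ppara, Ppard and Pparg, the carnitine shuttle genes Cpt1a and Slc25a20, the acyl-CoA thioesterases Acot1 and Acot2, the lipid droplet coat Plin2, the secreted lipase inhibitor Angptl4 and the uncoupling protein Ucp3. Messenger RNA was sequenced in 4 libraries of cells given OxPAPC, a mixture of oxidized arachidonoyl-containing phosphatidylcholines, at 100 µg/ml for 6 h (libraries 2, 9, 16 and 23) and in 4 libraries of cells given vehicle (libraries 1, 8, 15 and 22). Per the labels, all cells were unmodified H9c2 at passage 6, in medium with serum and high glucose, from 1 batch date. The composition of the vehicle and the time for which it was given are not stated in the labels. Nor do they say whether the libraries of a group are separate cultures. The p-values therefore rest on the scatter among these libraries, which may be technical in part.

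PPARs are nuclear receptors that bind fatty acids and their oxidized derivatives and act on DNA as heterodimers with retinoid X receptors (RXRs). PPARα and PPARδ drive genes of fatty acid import and oxidation in heart and muscle, while PPARγ is the master regulator of the fat cell. Ligand-bound receptors exchange corepressors for coactivators, and the response element is a direct repeat of the AGGTCA half-site with 1 base between the repeats, known as DR1.

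Library totals ran from 15.4 to 21.7 M counts, and 13206 genes passed the filter on low counts. The libraries differed more between groups than within them, by chi-square per degree of freedom of 23.1 to 35.0 for the 16 pairs across groups against 2.23 to 9.50 for the 12 pairs within a group, and no library repeated another within sampling noise. OxPAPC changed 34.3% of tested genes (edgeR adjusted p under 0.05), with rises making up 52.3% of the calls with TMM scaling and 40.2% with upper-quartile scaling. The muscle regulators Myod1 (85.9 ± 3.55 CPM in vehicle) and Myog (95.1 ± 5.67 CPM; SD, n = 4) were present, and 4 of 7 skeletal myoblast markers reached a mean of 1 CPM, while Myf5, Pax7 and Myf6 were below it. Of 8 cardiomyocyte markers Tnnt2, cardiac troponin T, stood at 128 ± 7.28 CPM and Actn2 at 3.16 ± 0.832 CPM in vehicle, whereas the other 6 had means below 1 CPM and the cardiac myosins Myh6 and Myh7 had 0 to 3 counts per library. Of 8 fibroblast markers 7 reached 1 CPM, with sums of 102047 to 111357 CPM per vehicle library and 99196 to 109615 CPM per OxPAPC library. Myog, the differentiation factor of myoblasts, fell to 40.0 ± 1.46 CPM with OxPAPC (log2 fold change −1.25 ± 0.05 SE, edgeR adjusted p = 3.08e-15). Myod1 rose slightly, to 94.1 ± 3.85 CPM (0.13 ± 0.04, edgeR adjusted p = 0.0168). The summed level of the 7 myoblast markers, 197 to 219 CPM per vehicle library and 153 to 167 CPM per OxPAPC library, thus differed mainly through Myog, whose part in the results below was not tested. In bulk RNA, fewer cells of a type and less RNA per cell cannot be told apart.

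Of the 10 members 6 rose with OxPAPC, none fell, 2 did not pass the test and 2 were too scarce to test. The rises were those of Angptl4, Acot2 and Cpt1a, each at least 2-fold, and of Plin2, Ppard and Slc25a20, each under 1.3-fold. Among all tested genes 17.9% rose, 16.4% fell and 1.02% rose at least 2-fold. The members were chosen with earlier results of these data known, so their count beside these shares is a description. In the 6 genes that rose every OxPAPC library lay above every vehicle library, a separation seen in 16.8% of all tested genes; as these 6 are those that rose, it adds no evidence of its own. Angptl4 passed the filter on low counts only through its OxPAPC libraries, so a call of that gene is in part built into the filter. Levels are given below as CPM, counts per M counts of the TMM-scaled library, with mean ± SD over 4 libraries, and log2 fold changes are OxPAPC over vehicle ± SE from edgeR's quasi-likelihood test, with p-values adjusted by Benjamini-Hochberg over all 13206 genes.

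**Figure D1:**
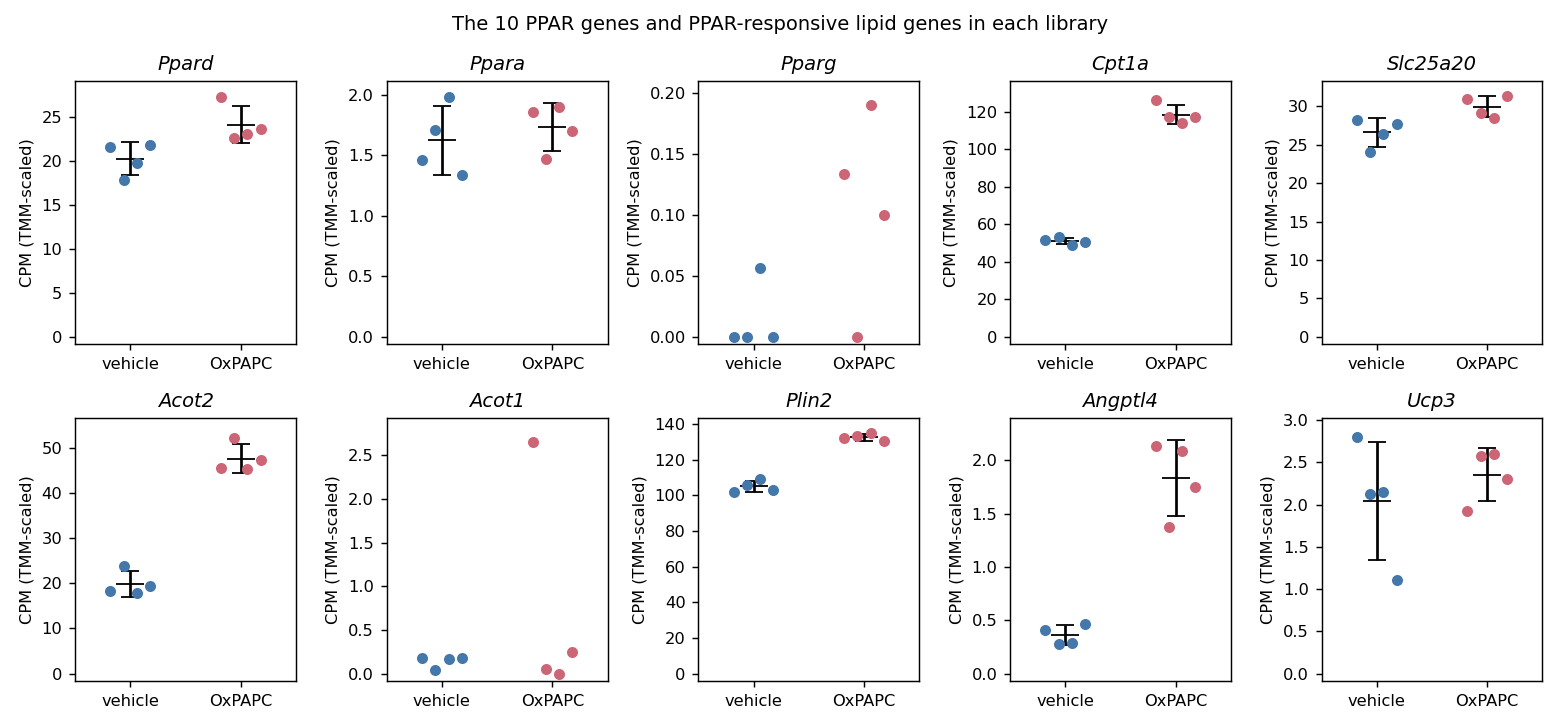
CPM of the 10 genes in each library, vehicle in blue and OxPAPC in red (4 points a group, libraries in ascending order of number from left to right); black marks are mean ± SD and are left out for the scarce Pparg and Acot1. Ppard, Cpt1a, Slc25a20, Acot2, Plin2 and Angptl4 show no overlap between groups, and for Acot1 only OxPAPC library 2 stands apart, at 2.66 CPM.

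Of the receptors, Ppard was by far the most abundant and the only one called as higher, while Pparg was too scarce to test. Per length, deposited FPKM of Ppard were 2.94, 2.43, 2.73 and 2.99 in vehicle libraries 1, 8, 15 and 22. They were 3.64, 3.04, 3.10 and 3.18 in OxPAPC libraries 2, 9, 16 and 23. The lowest OxPAPC value lay just above the highest vehicle value, and library 2 was the highest of the 8. On the CPM scale Ppard (gene 25682, chromosome 20, 6298785 to 6363970, plus strand) went from 20.2 ± 1.86 to 24.1 ± 2.13 CPM, which is 0.25 ± 0.08 on the log2 scale (edgeR adjusted p = 0.0149). The call was lost without vehicle library 8, the lowest of its group (0.19, edgeR adjusted p = 0.0752), and without OxPAPC library 2 (0.19, edgeR adjusted p = 0.0692), over a range of 0.00807 to 0.188 in all alternatives. The genes on either side of Ppard moved the other way: Def6 fell by 0.30 and the Fanconi anemia gene Fance by 0.27 on the log2 scale (edgeR adjusted p = 0.00406 and 0.018), the latter without its call when vehicle library 15 (0.0659) or OxPAPC library 2 (0.0588) was left out. A noncoding locus on the opposite strand, LOC120098961, shares 4595 bases with Ppard and had 16 counts in vehicle and 24 with OxPAPC, summed over the libraries, against 1477 and 1673 of Ppard.

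Ppara, the receptor most tied to fatty acid oxidation in heart and liver, was scarce. Its FPKM were 0.157, 0.185, 0.215 and 0.145 in the vehicle libraries and 0.196, 0.156, 0.202 and 0.181 in the OxPAPC libraries, in the order of library numbers. The groups overlapped throughout. The 120 counts over each group gave 1.62 ± 0.285 and 1.73 ± 0.195 CPM, with 0.08 ± 0.23 as log2 fold change (edgeR adjusted p = 0.819). That SE leaves room for changes of the size seen in Ppard. Ppara (gene 25747, chromosome 7, 116832405 to 116900878, plus strand) shares 4207 bases with Cdpf1 on the opposite strand, which had 391 and 314 counts over the groups (log2 fold change −0.23, edgeR adjusted p = 0.223), so part of its few counts may belong there.

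Pparg, the receptor of fat cells, was near the limit of detection. It had a single count in vehicle, in library 15, and 7 with OxPAPC, namely 2, 0, 3 and 2 in libraries 2, 9, 16 and 23. The ratio of the summed rates was 7.37 with a 95% exact counting interval of 0.947 to 332, which spans no difference. With no filter on low counts the edgeR adjusted p was 0.257. The fat cell markers Fabp4 and Retn had no count in any library. A sum of 0 over the 4 libraries of a group is compatible with levels of at most 0.0408 CPM (vehicle) or 0.0430 CPM (OxPAPC), taking 3 counts as the floor. The summed level of 8 adipocyte markers was 3.21 to 3.86 CPM per vehicle library and 3.00 to 3.45 CPM per OxPAPC library, with 1 of them, Cfd, above a mean of 1 CPM.

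The order of the receptors, Ppard above Ppara above Pparg, held in each of the 8 libraries. Ppard made up 91.7 to 95.4% of the summed FPKM of the PPAR genes, and its FPKM was 12.7 to 20.6 times that of Ppara. The log2 count ratio of Ppard to Ppara averaged 3.65 ± 0.35 for vehicle libraries and 3.80 ± 0.15 for OxPAPC libraries (SD, n = 4), a difference of 0.15 that did not pass (exact two-sided permutation p = 0.457, adjusted p = 0.457 over 5 ratios).

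**Figure D2:**
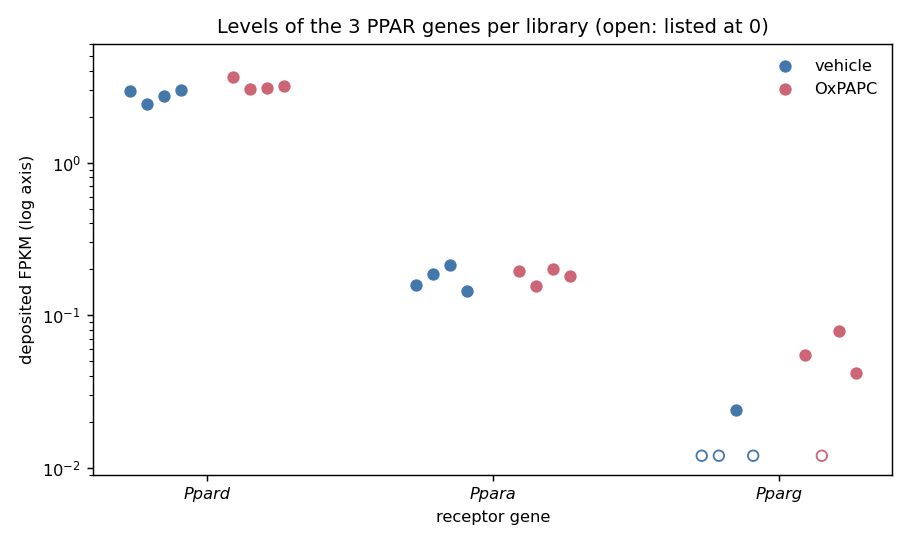
Deposited FPKM of Ppard, Ppara and Pparg in each library on a log axis, vehicle in blue and OxPAPC in red, with open circles for a library listed at 0. Ppard lies between 2.43 and 3.64, Ppara between 0.145 and 0.215, and Pparg at or below 0.0789.

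Among their partners, the retinoid X receptor gene Rxra was higher with OxPAPC, at 123 ± 4.47 CPM against 90.6 ± 3.68 CPM in vehicle (log2 fold change 0.44 ± 0.04, edgeR adjusted p = 1.10e-08). Rxrb was at 27.9 ± 0.534 and 32.4 ± 4.78 CPM (0.22 ± 0.08, edgeR adjusted p = 0.0454), a call that most alternatives did not keep (adjusted p up to 0.32), and Rxrg had no count. Among all tested genes 17.9% rose and 16.4% fell, with a median log2 fold change of 0.00. Of 16 partners and coregulators 14 were tested, 5 rose, 1 fell and 8 did not pass, with a median of 0.12. Besides Rxra and Rxrb the rises were those of the coactivators Ncoa2 (0.19 ± 0.06) and Med1 (0.13 ± 0.04) and of Lpin1 (0.37 ± 0.13), a phosphatidate phosphatase that also acts as a PPAR coactivator. The corepressor Nrip1 fell (−0.15 ± 0.06). Of these only Rxra kept its call under all 18 alternatives. For the coactivator PGC-1α (Ppargc1a) the summed counts were 7 in vehicle and 5 with OxPAPC, and its relative Ppargc1b did not pass (−0.23 ± 0.12, edgeR adjusted p = 0.14). Ppargc1b was called as lower with limma on log2(FPKM + 1) (−0.17, limma adjusted p = 0.0372).

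Carnitine shuttle genes moved to very different extents. Cpt1a (gene 25757, chromosome 1, 200564634 to 200627059, plus strand) encodes the liver-type carnitine palmitoyltransferase of the outer mitochondrial membrane, the rate-setting step of fatty acid entry. Its levels were 51.7, 53.0, 48.9 and 50.4 CPM in vehicle libraries 1, 8, 15 and 22. In OxPAPC libraries 2, 9, 16 and 23 they were 126, 117, 114 and 117 CPM. The groups were far apart, with an SD of 3.49% and 4.33% of the mean within them. The log2 fold change was 1.21 ± 0.04, or 2.32-fold (edgeR adjusted p = 4.98e-16), which made it the gene of rank 83 by fold change among the 13206 tested. Ranks by fold change, here and below, run from the largest rise to the largest fall. No gene of the table overlaps it, and its left neighbour Mrpl21 did not pass (0.10, edgeR adjusted p = 0.438).

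Slc25a20, which carries acylcarnitines across the inner membrane, rose only slightly. It had 28.3, 24.1, 26.4 and 27.7 CPM in vehicle and 31.0, 29.1, 28.5 and 31.3 CPM in OxPAPC libraries. The lowest OxPAPC library was barely above the highest vehicle library. The log2 fold change was 0.17 ± 0.06 (edgeR adjusted p = 0.0375), and the call was lost in 12 of 18 alternatives, among them leaving out vehicle library 8 (0.13, edgeR adjusted p = 0.151), vehicle 15 (0.0683), OxPAPC 2 (0.0884), OxPAPC 9 (0.0524) or OxPAPC 23 (0.0994). Its left neighbour Arih2 on the opposite strand, a ubiquitin ligase gene, rose more (0.48, edgeR adjusted p = 5.57e-08). LOC120094262, also on the opposite strand, shares 4571 bases with Slc25a20. It had summed counts of 6 in vehicle and 19 with OxPAPC, against 1946 and 2093 of Slc25a20. Cpt2, the enzyme of the inner membrane, had 15.4 ± 0.874 and 13.6 ± 0.882 CPM (−0.19 ± 0.08, edgeR adjusted p = 0.0879), and was called as lower with upper-quartile factors (edgeR adjusted p = 0.0392) and with limma on log2(FPKM + 1) (0.0369) or log2(FPKM + 0.1) (0.0345).

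Within each library Cpt1a shifted against its partners. The log2 count ratio of Cpt1a to Cpt2 was 1.72, 1.83, 1.75 and 1.61 in the vehicle libraries and 3.23, 3.09, 2.96 and 3.22 in the OxPAPC libraries. The difference of 1.40 does not depend on library scaling (exact two-sided permutation p = 0.0286, the smallest that 70 splits allow, adjusted p = 0.0476 over 5 ratios). The ratio of Cpt1a to Slc25a20 differed by 1.04, from 0.94 ± 0.13 to 1.98 ± 0.06 (SD over 4 libraries). Its exact two-sided p by permutation was 0.0286 (0.0476 after adjustment). Both ratios use the same Cpt1a counts as the call above, so they are not separate evidence of its rise. Among the Cpt1 isoform genes, Cpt1a held 52.4 to 64.6% of the summed FPKM in vehicle and 73.7 to 83.5% in OxPAPC. The muscle isoform Cpt1b (0.31 ± 0.30, edgeR adjusted p = 0.501) and the brain isoform Cpt1c (−0.28 ± 0.14, edgeR adjusted p = 0.166) did not pass. Cpt1c was called as lower without OxPAPC library 23 (−0.43, edgeR adjusted p = 0.00291) and with no filter on low counts (−0.29, edgeR adjusted p = 0.00584).

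**Figure D3:**
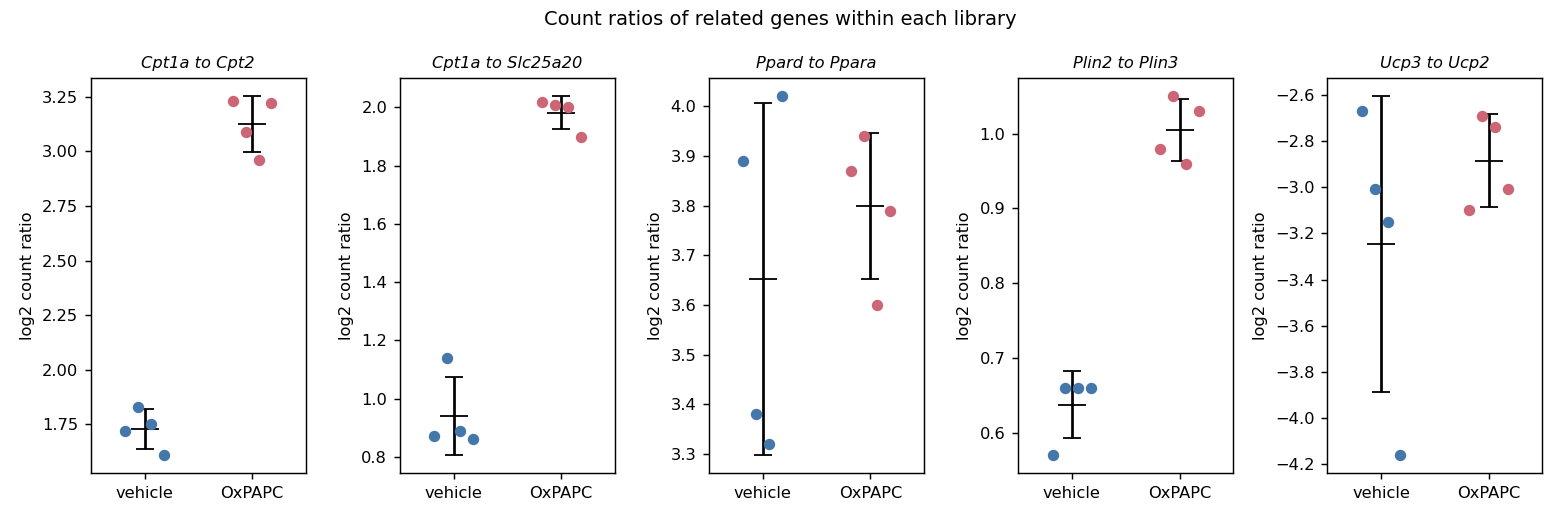
Log2 count ratio of 5 pairs of related genes in each library, vehicle in blue and OxPAPC in red, with mean ± SD in black. The ratios of Cpt1a to Cpt2, Cpt1a to Slc25a20 and Plin2 to Plin3 separate the groups, whereas those of Ppard to Ppara and Ucp3 to Ucp2 overlap.

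Other genes of the carnitine shuttle and of fatty acyl-CoA synthesis showed small changes in both directions. Of 11 listed genes 10 were tested, 1 rose, 2 fell and 7 did not pass, with a median log2 fold change of −0.09. At large, 17.9% of tested genes rose and 16.4% fell. Acsl4, an acyl-CoA synthetase that prefers arachidonate, rose (0.30 ± 0.04, edgeR adjusted p = 5.90e-06). Acsl5 (−0.13 ± 0.03) and the plasma membrane carnitine transporter Slc22a5 (−0.31 ± 0.11) fell. The Slc22a5 call was lost without vehicle library 1 or 15 or OxPAPC library 2 or 23 (edgeR adjusted p = 0.0617 to 0.0977), with DESeq2 (0.0518) and with limma on log2(FPKM + 1) without a filter (0.0762).

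Acyl-CoA thioesterases split fatty acyl-CoA into free fatty acid and CoA, Acot1 in the cytosol and Acot2 in mitochondria. Acot2 (gene 192272, chromosome 6, 103611744 to 103619404, plus strand) had 18.3, 23.9, 17.8 and 19.4 CPM in vehicle libraries 1, 8, 15 and 22. It had 45.6, 52.2, 45.4 and 47.2 CPM in OxPAPC libraries 2, 9, 16 and 23. The groups did not overlap, and library 8 was the highest of the vehicle group. The log2 fold change was 1.26 ± 0.08, or 2.39-fold (edgeR adjusted p = 2.70e-09; rank 72 by fold change). Its left neighbour Heatr4 on the opposite strand, 165 bases away, had 81 and 111 counts over the groups and did not pass (0.52, edgeR adjusted p = 0.192).

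Acot1, 24.4 kb downstream on the same strand (gene 50559, 103636173 to 103644167), was almost silent except in 1 library. Its counts were 3, 1, 3 and 3 in the vehicle libraries and 40, 1, 0 and 5 in OxPAPC libraries 2, 9, 16 and 23. Library 2 thus held 71.4% of all Acot1 counts. It did not pass the filter on low counts, and with no filter the edgeR adjusted p was 0.333. Summed over groups it had 10 and 46 counts, and without OxPAPC library 2 the sums were 10 and 6, a rate ratio of 0.805 with a 95% exact counting interval of 0.240 to 2.44. Acot2 was not raised in library 2 over the other OxPAPC libraries.

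Acot1 and Acot2 lie in a cluster of thioesterase genes, and Acot3, a relative that is peroxisomal in mouse and lies 70.8 kb from Acot2, was the other well expressed member. Acot3 (gene 314304, 103682518 to 103688735, plus strand) had 21.6, 22.1, 25.5 and 26.3 CPM in vehicle and 60.2, 57.4, 62.7 and 68.3 CPM in OxPAPC. Those groups did not overlap either. It rose by 1.38 ± 0.07 on the log2 scale (edgeR adjusted p = 4.30e-12). The log2 count ratio of Acot2 to Acot3 averaged −0.27 ± 0.28 for vehicle libraries and −0.38 ± 0.17 for OxPAPC libraries (SD, n = 4). It was added after the values were seen and was not tested. Acot4 and Acot5 had no count in any library, and Acot6 had summed counts of 8 in vehicle and 4 with OxPAPC. These genes are close paralogs, and the labels do not say how reads shared between them were counted, so the split between Acot1, Acot2 and Acot3 is uncertain.

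**Figure D4:**
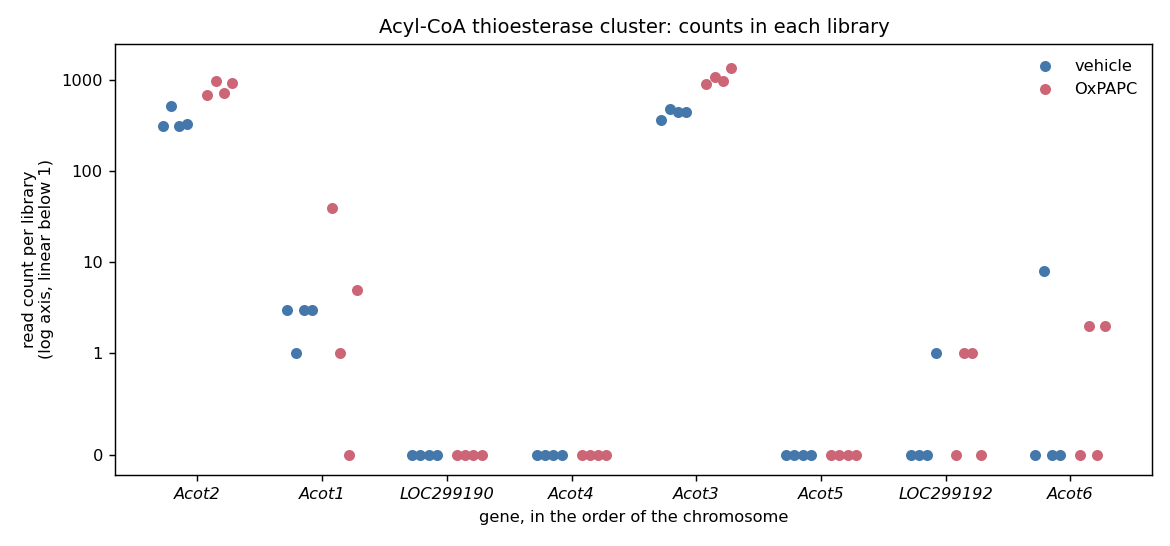
Read counts per library of the 8 genes of the Acot cluster in chromosome order, vehicle in blue and OxPAPC in red, on a log axis that is linear below 1. Acot2 and Acot3 carry 314 to 1366 counts per library with OxPAPC above vehicle, Acot1 reaches 40 counts in OxPAPC library 2 only, and the others stay at 8 counts or fewer.

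Of 12 further thioesterase genes 7 were tested, 2 rose, none fell and 5 did not pass. This stood beside 17.9% of all tested genes that rose and 16.4% that fell. The median log2 fold change of the 7 was −0.04. Besides Acot3 the rise was that of Acot7 (0.44 ± 0.05, edgeR adjusted p = 5.01e-07), the cytosolic thioesterase abundant in brain. Both kept their calls in all 18 alternatives.

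Plin2, the perilipin that coats lipid droplets in most cells, was the most abundant member per length and had the smallest relative spread within groups of the 10. It had 102, 106, 109 and 103 CPM in vehicle libraries 1, 8, 15 and 22. In OxPAPC libraries 2, 9, 16 and 23 it had 132, 133, 135 and 130.4 CPM. The groups were well separated although the change was small. The log2 fold change was 0.34 ± 0.04, or 1.26-fold (edgeR adjusted p = 9.79e-08), for gene 298199 on chromosome 5 (101156643 to 101211738, minus strand). Fam29a, 246 bases from its end on the same strand, fell (−0.26, edgeR adjusted p = 0.00125). The ratio of Plin2 to Plin3, another widely expressed perilipin, rose from 0.64 ± 0.04 to 1.00 ± 0.04 on the log2 scale (SD over 4 libraries), with an exact two-sided p by permutation of 0.0286 (0.0476 after adjustment), and Plin2 went from 50.2 to 51.6% of the summed perilipin FPKM in vehicle to 56.9 to 58.3% in OxPAPC. This ratio and share use the same Plin2 counts as the call, so they are not separate evidence of its rise.

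Of 18 other lipid droplet genes 12 were tested, 4 rose, 1 fell and 7 did not pass, with a median of 0.06. Over all tested genes the shares were 17.9% for rises and 16.4% for falls. Pnpla2, the triglyceride lipase ATGL, rose (0.40 ± 0.06, edgeR adjusted p = 5.41e-06), as did its activator Abhd5 (0.15 ± 0.05, edgeR adjusted p = 0.0153) and Hilpda, an inhibitor of that lipase (0.38 ± 0.10, edgeR adjusted p = 0.00362). The call of Abhd5 was lost without vehicle library 8 (0.0601) or OxPAPC library 9 (0.0647), with upper-quartile factors (0.069) and in the FPKM fits (0.0691 to 0.107). That of Hilpda was lost with limma on log2(FPKM + 1) without a filter (0.0642). Cidea, a droplet protein known from brown fat, had only 6 to 19 counts per vehicle and 14 to 38 per OxPAPC library (1.04 ± 0.35, edgeR adjusted p = 0.0247), overlapped between groups, and was not called without vehicle library 1 or 22 or OxPAPC library 2 or 23 (edgeR adjusted p = 0.0572 to 0.12), nor with limma-voom (0.0571) or in the FPKM fits (0.0625 to 0.169). The monoglyceride lipase Mgll fell (−0.48 ± 0.06, edgeR adjusted p = 3.74e-06). Plin5, the perilipin of oxidative muscle, had no count.

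Angptl4, a secreted inhibitor of lipoprotein lipase, had the largest fold change of the 8 tested members, from a very low level. Its counts were 7, 6, 5 and 8 in vehicle libraries 1, 8, 15 and 22 and 32, 26, 33 and 35 in OxPAPC libraries 2, 9, 16 and 23. No OxPAPC library came near the vehicle range. This corresponds to 0.359 ± 0.0939 and 1.83 ± 0.356 CPM and a log2 fold change of 2.34 ± 0.32, or 5.05-fold (edgeR adjusted p = 4.87e-06; rank 19 by fold change), for gene 362850 on chromosome 7 (14550288 to 14557797, minus strand). On the log2(FPKM + 1) scale, which understates changes of low genes, the value was 0.54. Its target Lpl did not pass (57.2 ± 1.86 and 60.4 ± 2.48 CPM, 0.08 ± 0.05, edgeR adjusted p = 0.212), so that Angptl4 had 0.00481 to 0.00837 counts per Lpl count in vehicle and 0.0240 to 0.0354 in OxPAPC libraries; this ratio was not tested, since Angptl4 had under 10 counts in the vehicle libraries. Of 9 genes of the ANGPTL family and lipoprotein lipase handling 3 were tested, none rose, Angptl2 fell (−0.13 ± 0.04, edgeR adjusted p = 0.00883) and 2 did not pass. Over all tested genes 17.9% rose and 16.4% fell.

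Ucp3, the mitochondrial carrier of muscle that rises in that tissue when fatty acid supply is high, was scarce. It had 2.80, 2.13, 2.15 and 1.11 CPM in the vehicle libraries and 1.93, 2.58, 2.60 and 2.30 CPM in the OxPAPC libraries, in the order of their numbers. The OxPAPC values lay within the vehicle range, whose low end was library 22. The log2 fold change was 0.20 ± 0.24 (edgeR adjusted p = 0.566), and 0.00 without vehicle library 22, for gene 25708 on chromosome 1 (154815777 to 154828764, plus strand). Ucp2, its neighbour at a gap of 10477 bases, did not pass either (−0.10 ± 0.08, edgeR adjusted p = 0.357), nor did the ratio of the pair (difference 0.37, exact two-sided permutation p = 0.40, adjusted p = 0.457). None of 3 tested uncoupling protein genes besides Ucp3 passed, beside 34.3% of all tested genes.

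**Figure D5:**
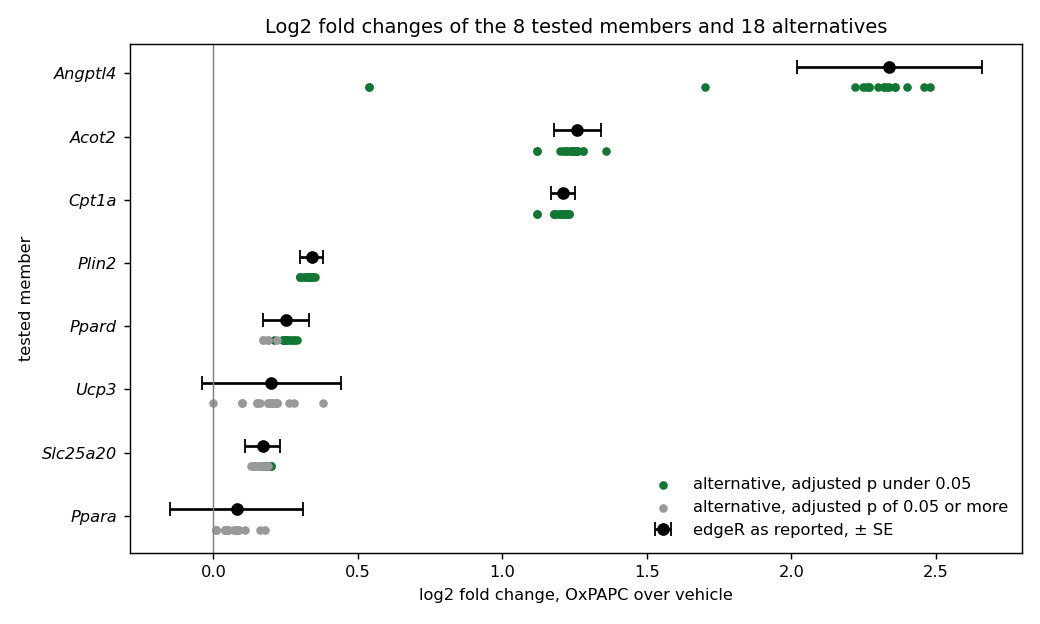
Log2 fold change of OxPAPC over vehicle for the 8 tested members, black points with SE as reported and, beneath each, the values of 18 alternatives in green where the adjusted p was under 0.05 and grey where it was not. Angptl4, Acot2, Cpt1a and Plin2 are green throughout, Ppard and Slc25a20 are mixed, and Ucp3 and Ppara are grey throughout.

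Other genes known to respond to PPARs rose about as often as tested genes at large, and none fell. Among all tested genes 17.9% rose and 16.4% fell. Of 34 further genes, 22 were tested, 4 rose, none fell and 18 did not pass, with a median log2 fold change of 0.05. The rises were those of catalase (Cat, 2.06 ± 0.04, from 76.2 ± 0.874 to 317 ± 13.5 CPM, edgeR adjusted p = 5.96e-22), the peroxisomal enzyme that splits hydrogen peroxide, of Pnpla2, of the fatty acid transporter Slc27a1 (0.23 ± 0.06, edgeR adjusted p = 0.00291) and of Hadhb, a subunit of the trifunctional protein of β-oxidation (0.14 ± 0.04, edgeR adjusted p = 0.00325). Each of these kept its call in all 18 alternatives. Catalase is known as a target of other stress pathways as well. Among well-known PPAR targets, Cd36, Fabp4, Vnn1, Plin5 and G0s2 had no count, and Pdk4 was below the filter. Over all 93 listed genes that are not members, 64 were tested, 15 rose, 5 fell and 44 did not pass, with a median of 0.04. With limma on log2(FPKM + 1) 9 rose and 8 fell. The lists were chosen with earlier results of these data known, and genes named beyond the members, the ratio partners and the neighbours include some chosen after their values were seen.

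The genes nearest to Cpt1a in pattern, by Euclidean distance of centred log2 CPM over the 8 libraries, were the Wnt receptor gene Fzd8 (distance 0.066, from 39.0 ± 1.47 to 89.0 ± 3.83 CPM), the KIT ligand gene Kitlg (0.127), the autophagy receptor gene Sqstm1 (0.141), the apolipoprotein E receptor gene Lrp8 (0.166) and the glutathione transferase gene Gstp1 (0.175). The log2 fold changes of Fzd8, Kitlg and Sqstm1 were 1.19, 1.22 and 1.21, beside 1.21 for Cpt1a. Likeness over 2 groups of libraries is mostly likeness in fold change, and is given as a description.

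Promoter windows, from 250 bases before to 50 bases after each annotated start, were taken from RefSeq on the assembly GRCr8 and were matched for 9 of the 10 members, with 11 windows in all (Ppard was not matched). They show whether letters of a PPAR response element lie close to the starts of these genes. The DR1 element, AGGTCA and AGGTCA in tandem with any 1 base between them, searched on both strands, was in none of these windows and in 0.0538% of 33469 windows of the table. A single half-site, AGGTCA on either strand, was found only for Ucp3, at positions −155 and −50 from the start, and in 16.2% of all windows. The core of the antioxidant response element, TGACNNNGC on either strand, was found only for Acot2, as TGACTCTGC at position −168, and in 12.1% of all windows. These motifs were chosen with earlier results known, a match is a description of letters, and the absence of one concerns these windows alone.

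The windows of the genes that rose at least 2-fold, and of Ucp3, follow from 5′ to 3′, with motif matches in capitals. They are chr1:209995910-209996209 (plus strand) for Cpt1a, chr6:109342590-109342889 (plus) for Acot2, chr7:15258632-15258931 (minus) for Angptl4 and chr1:164227660-164227959 (plus) for Ucp3, and their content of G and C is 48.3%, 46.0%, 58.3% and 54.0%.
Cpt1a: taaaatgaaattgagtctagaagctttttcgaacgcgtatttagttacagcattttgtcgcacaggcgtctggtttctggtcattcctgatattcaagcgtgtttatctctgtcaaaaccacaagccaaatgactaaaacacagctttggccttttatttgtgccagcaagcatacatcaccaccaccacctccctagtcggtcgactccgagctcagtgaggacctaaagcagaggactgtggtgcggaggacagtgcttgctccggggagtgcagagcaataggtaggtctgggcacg
Acot2: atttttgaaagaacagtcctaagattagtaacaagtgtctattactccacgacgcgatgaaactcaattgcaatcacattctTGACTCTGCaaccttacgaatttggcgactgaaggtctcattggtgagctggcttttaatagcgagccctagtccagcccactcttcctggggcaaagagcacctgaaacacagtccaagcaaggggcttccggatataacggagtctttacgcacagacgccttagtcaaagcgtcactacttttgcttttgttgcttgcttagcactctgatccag
Angptl4: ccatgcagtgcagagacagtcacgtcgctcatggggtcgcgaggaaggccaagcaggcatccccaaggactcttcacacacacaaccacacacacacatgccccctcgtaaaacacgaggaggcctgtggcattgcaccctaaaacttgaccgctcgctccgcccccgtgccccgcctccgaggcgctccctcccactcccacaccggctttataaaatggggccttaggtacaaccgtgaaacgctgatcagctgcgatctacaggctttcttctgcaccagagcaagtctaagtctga
Ucp3: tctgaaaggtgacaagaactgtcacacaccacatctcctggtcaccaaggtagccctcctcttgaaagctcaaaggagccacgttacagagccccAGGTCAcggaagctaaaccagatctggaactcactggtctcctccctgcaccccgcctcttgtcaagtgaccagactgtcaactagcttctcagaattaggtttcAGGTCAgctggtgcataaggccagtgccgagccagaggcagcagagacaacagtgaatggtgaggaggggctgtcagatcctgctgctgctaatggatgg
Whether these letters bear on the changes was not tested. The half-site and the antioxidant core were each found for 1 of 9 members, beside 16.2% and 12.1% of all windows. The DR1 letters lay in 0.0538% of all windows, so their absence from the 11 windows of the members carries little information.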

How the data were processed

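The authors deposited whole-number read counts per gene and FPKM values per gene for 8 libraries. The submitters' processing notes name featureCounts 1.5.0-p3, HISAT2 2.0.5 and StringTie 1.3.3b, with no role given. The genome build, the treatment of shared reads and the strand setting are not given in the sources used here. Gene positions are printed as deposited, with chromosome numbers taken through gene identifiers from a RefSeq table of GRCr8 (91.9% of identifiers matched). The deposited positions are not those of GRCr8: Cpt1a starts at 200564634 as deposited, whereas its GRCr8 promoter window starts at 209995910. Deposited positions and promoter windows therefore cannot be combined. A single line was emptied in each deposited file for this work. The deposited FPKM equal counts per kb and per M counts times 1 factor per library (0.987 to 1.019), so they add no independent evidence.

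Counts were tested with edgeR 4.0.16 in R 4.3.3 (filterByExpr with a minimum of 10 counts, TMM, robust quasi-likelihood F test, all 8 libraries, no covariate), called at a Benjamini-Hochberg adjusted p under 0.05 over 13206 genes. SE was taken as the size of the log2 fold change over the root of its F statistic. Library totals were 15.4 to 21.7 M counts; the deposited files record no molecular identifiers, so intervals and the floor of 3 counts cover counting error only. Ratios of related genes with at least 10 counts in every library were tested by exact two-sided permutation over 70 splits.

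Alternatives were RLE, upper-quartile or no factors, other filters, DESeq2 1.42.0, limma-voom and limma on log2(FPKM + 1) or log2(FPKM + 0.1) (limma 3.58.1), and each library left out. Members, gene lists and motifs were chosen with earlier results of these data known. Besides the members, the rule named listed genes that passed with an absolute log2 fold change of at least 0.5, ratio partners, overlapping and neighbouring genes, and the 5 genes nearest in pattern to the member of smallest p, with 0.5 added to CPM.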

Additional observations from a re-analysis of the deposited data

Results flagged for a closer look

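In 4 libraries a value was listed when its gap to the nearest other library exceeded the share of its group's range set by Dixon's 95% critical value. Chance does this in about 1 of 20 groups, and 30 groups were examined. For Acot1 in OxPAPC the quotient was 0.906, because library 2 had 40 counts and the others 1, 0 and 5. For Acot1 in vehicle it was 0.96, with 1 count in library 8 against 3 in each of the others, and for Pparg in vehicle it was 1.0, with 1 count in library 15 and 0 elsewhere. Both of these rest on 1 to 3 counts. The log2 ratio of Cpt1a to Slc25a20 was 1.14 in vehicle library 8 and 0.86 to 0.89 in the other vehicle libraries (0.894), and that of Plin2 to Plin3 was 0.57 in vehicle library 1 and 0.66 in the others (0.955). In both ratios the OxPAPC libraries lay above the library that stood apart.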

How the results depend on the processing

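Under 18 alternatives Cpt1a, Acot2, Plin2 and Angptl4 kept their calls, Ppara and Ucp3 remained uncalled, no member's log2 fold change turned negative, no member fell, and 4 to 6 members rose. Ppard was 0.17, 0.22 and 0.17 with log2(FPKM + 1), log2(FPKM + 0.1) and log2(FPKM + 1) without a filter (limma adjusted p = 0.0924, 0.0962 and 0.188), and 0.19 to 0.29 with 1 library left out. Slc25a20 was 0.14 with upper-quartile factors (adjusted p = 0.107), 0.16 with library totals (0.0623), 0.17 with DESeq2 (0.0766), 0.16 without a filter (0.0727), 0.14 in the FPKM fits (0.0767 to 0.148) and 0.13 to 0.20 with 1 library left out. Other pathway genes that rose numbered 9, 9 and 8 in the FPKM fits against 15, and those that fell 8 with upper-quartile factors and with log2(FPKM + 1), and 3 with DESeq2 and with log2(FPKM + 1) without a filter, against 5. The cause was not tested. The ratios of Cpt1a to Cpt2, Cpt1a to Slc25a20 and Plin2 to Plin3 differed by 1.36 to 1.45, 1.02 to 1.11 and 0.35 to 0.38 over 10 alternatives each; their p is the smallest the splits allow and says nothing of stability. The difference of mean CPM of Acot1, 0.60, became −0.0407 without OxPAPC library 2. No paired analysis was possible because the labels give the groups no shared replicate number and state no pairing. Depth limits what can be said of Pparg, Ppara, Ucp3 and Acot1.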

Other observations

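Among 14898 genes with at least 30 counts over the 8 libraries, Acot1 was the only one with at least 70% of its counts in 1 library, and with a limit of 50% there was 1 gene for OxPAPC library 2 and 1 for vehicle library 8. These limits were chosen after the Acot1 counts were seen.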
